A study of Mus musculus with 9 samples.

Results

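The genes of glycolysis and of the cellular response to low oxygen were followed in sorted cells of the embryonic mouse cortex after knockdown of the glypicans Gpc4 and Gpc2. The 34 genes were fixed by name and comprised 16 glycolytic enzymes, 5 glucose or monocarboxylate transporters, 2 regulators of glucose flux, 3 subunits of the hypoxia-inducible factor (HIF) and 8 HIF targets. All 34 were found among the 78275 gene IDs of the count table, and all 34 were among the 27773 genes that passed the filter on low counts and were tested.

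Gpc4 and Gpc2 encode heparan sulfate proteoglycans of the cell surface. Wild-type embryos were electroporated in utero at E14.5 with a construct carrying mCherry and a microRNA-embedded short hairpin, and mCherry-positive forebrain cells, labelled as progenitors and neurons of the cortex, were sorted at E16.5, 48 h later. The hairpin was directed against Gpc4 in the sh-Gpc4 group, against Gpc2 in the sh-Gpc2 group, and was a scrambled sequence in the sh-NT group. There were 3 libraries in each group, numbered here as in the count table (1, 3 and 4 for sh-Gpc4, and 1, 2 and 4 for both sh-Gpc2 and sh-NT). All groups therefore share the electroporation, the mCherry sort and a hairpin. The labels do not name the promoter that drives the hairpin, and they do not tie the libraries to separate litters, so p-values measure the spread between these libraries, which may be technical.

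Glycolysis converts glucose to pyruvate through a chain of cytosolic enzymes, and lactate dehydrogenase interconverts pyruvate and lactate. HIF is a dimer of an alpha subunit, Hif1a or Epas1 (HIF-2 alpha), with Arnt. In the presence of oxygen, prolyl hydroxylases such as Egln1 and Egln3 mark the alpha subunit for degradation. Under low oxygen the dimer binds DNA at sites with a short core motif and raises the transcription of most glycolytic enzymes, of glucose transporters, of Vegfa and of its own hydroxylases. The alpha subunits are controlled mainly through protein stability, which an RNA count does not measure. In the developing cortex, progenitors are known for a more glycolytic metabolism than the neurons they produce.

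The promoters of the members were searched for the HIF core, spelled ACGTG or GCGTG, on both strands of the 250 bases before the annotated start (RefSeq, build GRCm38.p6). The table held 31 of the 34 members, and Epas1, Bnip3l and Slc2a3 were not matched in it. The promoters shown are those of Ankrd37, P4ha1 and Egln1, the HIF targets with the largest positive fold changes, of Slc16a11, the transporter with the largest negative one, and of Ldha, the enzyme with the most matches. Capitals mark the matches, and each sequence runs 5′ to 3′ on the strand of its gene.
Ankrd37: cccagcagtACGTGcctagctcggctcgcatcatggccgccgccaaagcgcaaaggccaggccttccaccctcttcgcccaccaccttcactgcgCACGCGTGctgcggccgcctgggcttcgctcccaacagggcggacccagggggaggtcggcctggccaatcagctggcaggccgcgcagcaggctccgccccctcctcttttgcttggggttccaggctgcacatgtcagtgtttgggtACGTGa
P4ha1: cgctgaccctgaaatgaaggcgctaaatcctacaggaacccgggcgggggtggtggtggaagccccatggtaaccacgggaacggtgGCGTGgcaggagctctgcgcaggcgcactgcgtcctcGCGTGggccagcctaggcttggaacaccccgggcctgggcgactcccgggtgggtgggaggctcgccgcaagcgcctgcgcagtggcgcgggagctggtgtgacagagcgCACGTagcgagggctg
Egln1: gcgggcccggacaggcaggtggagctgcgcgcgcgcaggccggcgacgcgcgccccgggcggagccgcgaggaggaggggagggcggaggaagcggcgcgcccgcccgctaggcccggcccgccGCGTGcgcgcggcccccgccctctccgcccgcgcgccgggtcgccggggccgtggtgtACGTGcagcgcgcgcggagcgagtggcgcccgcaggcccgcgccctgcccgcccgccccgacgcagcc
Slc16a11: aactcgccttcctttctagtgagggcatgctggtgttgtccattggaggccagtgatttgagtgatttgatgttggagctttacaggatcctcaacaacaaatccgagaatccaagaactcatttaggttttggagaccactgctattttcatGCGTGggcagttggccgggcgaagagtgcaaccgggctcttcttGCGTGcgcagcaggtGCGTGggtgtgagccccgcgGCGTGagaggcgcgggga
Ldha: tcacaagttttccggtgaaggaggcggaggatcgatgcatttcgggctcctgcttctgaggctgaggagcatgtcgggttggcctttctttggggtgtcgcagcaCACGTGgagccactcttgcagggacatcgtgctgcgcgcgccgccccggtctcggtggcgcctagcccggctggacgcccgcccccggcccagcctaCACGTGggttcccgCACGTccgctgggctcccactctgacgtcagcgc

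The Ankrd37 stretch is chr8:45999851-46000100 on the minus strand, with ACGTG beginning 241 and 6 bases before the start and an overlapping pair of GCGTG matches, one on each strand, at 155 and 152 bases. The P4ha1 stretch is chr10:59323046-59323295 on the plus strand and holds 1 ACGTG match and 2 GCGTG matches. The Egln1 stretch is chr8:124949255-124949504 on the minus strand, with 1 match of each motif. Slc16a11, at chr11:70213660-70213909 on the plus strand, held 4 GCGTG matches and 0 ACGTG matches. The Ldha stretch is the first of the 2 listed for the gene, chr7:46845554-46845803 on the plus strand. It holds CACGTG at 2 places, where ACGTG reads on both strands and is counted once on each, and a further ACGTG on the minus strand, giving 5 matches.

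The ACGTG form was present in the promoters of 7 of the 7 HIF targets in the table (100%), 7 of 16 enzymes (43.8%) and 4 of 6 transporters and flux regulators (66.7%). Across all 27025 genes with a promoter in the table the share was 18.5%. With either form counted, 28 of 31 members (90.3%) had a match, against 41.5% of all genes. Genes with several annotated starts were counted once, as having a match if any start had one, and 31 members had 44 promoters. A match is a description of these letters only, and the base composition of the promoters was not compared.

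In the control cells glycolytic enzymes led the order of the members, though some enzymes were low, and the HIF-2 alpha message was close to the limit of detection. Levels are TMM-scaled CPM (read counts scaled to the total and the composition of the library) divided by the length of all annotated exons in kb, over the 3 sh-NT libraries. Ldhb, a lactate dehydrogenase subunit, stood at 313 ± 36.6 CPM per kb and Pkm, pyruvate kinase, at 301 ± 17.5 CPM per kb (SD, n = 3 each). These 2 genes overlapped between libraries, as did 13 of the 33 pairs of neighbours in the order of levels. Eno1 (enolase) followed at 163 ± 11.1 CPM per kb, then Aldoa (aldolase) at 136 ± 9.35, Ldha at 117 ± 12 and Gapdh at 81.7 ± 7.86 CPM per kb. The symbol Aldoa belongs to 2 gene IDs, and the one with more reads was used. The other held counts equal to 98% to 98.6% of its own, so the level of Aldoa and its place in the order are uncertain. Other enzymes stood far lower, with Hk1 at 10.3 ± 0.4, Hk2 at 4.87 ± 0.142, Pfkp at 2.26 ± 0.137 and Eno2 at 1.18 ± 0.0731 CPM per kb. At the low end, Vegfa, the endothelial growth factor, was at 0.605 ± 0.0771, Slc16a11 at 0.203 ± 0.0182 and Epas1 at 0.127 ± 0.0502 CPM per kb. The order at the top depended on the length used. With the longest annotated transcript in its place, Pkm led at 619 CPM per kb, Eno1 followed at 433 and Ldhb at 377 CPM per kb.

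**Figure D1:**
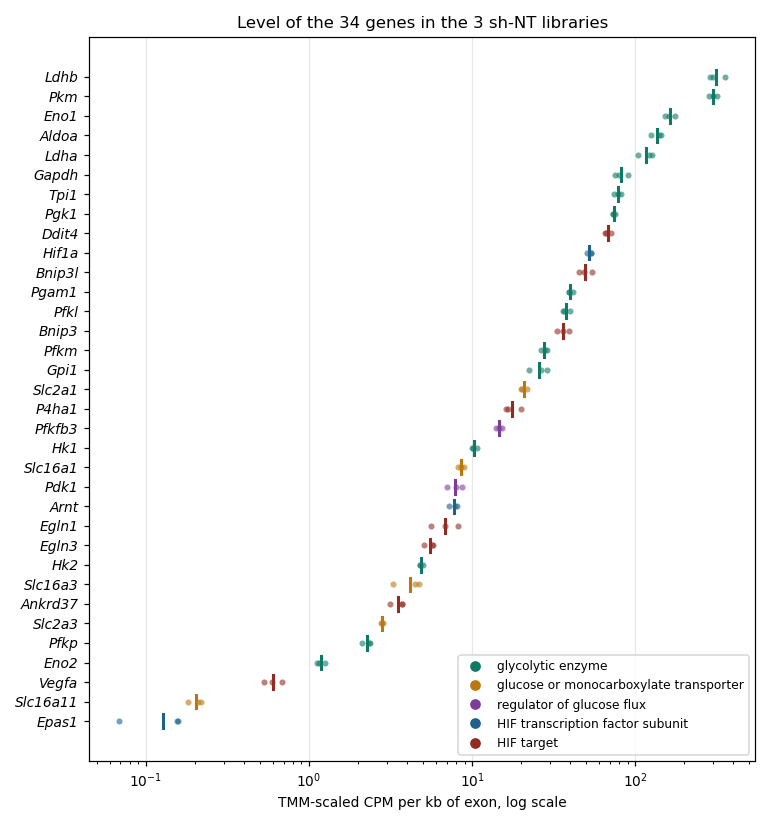
Level of each of the 34 genes in the 3 sh-NT libraries, as TMM-scaled CPM per kb of exon on a log axis. Points are libraries, vertical bars are group means, and colours give the role; 8 enzymes lead the order from Ldhb (313) to Pgk1 (73.9), and Slc16a11 (0.203) and Epas1 (0.127) are lowest.

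At some steps with several isoenzymes 1 form dominated at the RNA level, and at others the forms were close. Per kb of exon, the enolase Eno1 exceeded Eno2, the enolase known from mature neurons, by 122, 144 and 152 times in the 3 sh-NT libraries. Among the phosphofructokinases, which catalyse the committed step of glycolysis, the liver form Pfkl was at 37.6 ± 1.93, the muscle form Pfkm at 27.8 ± 1.11 and the platelet form Pfkp at 2.26 ± 0.137 CPM per kb. The glucose transporter Slc2a1 (GLUT1) exceeded Slc2a3 (GLUT3) by 7.73, 7.26 and 7.10 times in the sh-NT libraries. Hif1a, at 52.4 ± 1.76 CPM per kb, exceeded Epas1 by 774, 340 and 325 times. The lactate dehydrogenase pair was closer, with Ldhb over Ldha at 2.44, 2.27 and 3.42. These ratios depend on the exon lengths used. Per kb of the longest transcript, the sh-NT means were 433 for Eno1 and 1.99 for Eno2, 67.3 for Pfkl and 32.3 for Pfkm, and 377 for Ldhb and 214 CPM per kb for Ldha.

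The libraries did not vary evenly, and that variation runs through many of the members. Total counts ran from 48045603 to 66538437 reads. The first principal component of 11968 abundant genes held 71.6% of the variance. On it sh-Gpc4 library 3 had a score of 46.7, sh-Gpc2 library 4 at 36.6 and sh-Gpc4 library 4 at 15.8, and the other 6 lay between -25.8 and -5.71. In these 3 libraries the deviation of genes from their mean correlated negatively with transcript GC content (across genes, r = -0.513, -0.453 and -0.299), and positively in the other 6 (0.246 to 0.408). The targeted RNAs were lower on average without passing the threshold. Gpc4 had 137, 99.9 and 129 CPM in sh-Gpc4 against 165, 188 and 175 CPM in sh-NT, and Gpc2 had 167, 145 and 79.6 CPM in sh-Gpc2 against 200, 207 and 161 CPM in sh-NT (edgeR adjusted p = 0.488 and 0.968). Gpc2 was also low in the group with the other hairpin, with 168, 70.3 and 96.6 CPM in sh-Gpc4, and its log2 fold change over sh-NT was -0.76 with sh-Gpc4 (SE 0.33) and -0.54 with sh-Gpc2 (SE 0.33). Gpc4 had 145, 216 and 116 CPM in sh-Gpc2. Markers of the labelled cells were present, with radial glia markers summing to 2510 to 4215 CPM and markers of newborn and excitatory neurons to 5355 to 6723 CPM over all libraries. Markers of microglia and macrophages were higher for 16 of 18 genes with sh-Gpc4 over sh-NT (median log2 fold change 0.40) and 14 of 18 with sh-Gpc2 (median 0.28), with none past the threshold, and summed to 1873 to 2670 CPM in sh-Gpc4, 760 to 2460 CPM in sh-Gpc2 and 1330 to 2089 CPM in sh-NT; their part in the members' values was not tested. Over all libraries, erythroid markers summed to 104 to 282 CPM and markers of GABAergic and ventral cells to 16.8 to 52.1 CPM, with sh-NT library 1 at 52.1 and the other 8 libraries at 23.2 or less. Of the 7 GABAergic and ventral markers tested (of 12 listed), 6 were lower with sh-Gpc4 (median log2 fold change -2.20) and 6 with sh-Gpc2 (median -1.33), with none past the threshold.

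No member passed the threshold in edgeR's quasi-likelihood test, an adjusted p under 0.05, in any of the 3 comparisons. With sh-Gpc4 over sh-NT, 0 of 34 members and 0% of the 27773 genes tested passed, and 4 members had an unadjusted p under 0.05 (2 higher, Ankrd37 and P4ha1, and 2 lower, Slc16a11 and Epas1) where 9.57% of all genes did (3.56% higher and 6.01% lower). DESeq2 called 0.162% of all genes in that comparison and 1 member, Epas1, and limma voom called 0% and 0 members. The smallest adjusted p of limma voom was 0.0531. Its unadjusted p was under 0.05 for 12 of the 34 members and for 9011 of the 27773 genes. With sh-Gpc2 over sh-NT, 0 members and 0% of genes passed in all of these tools. There 2 members, Slc16a11 and Eno2, had an unadjusted edgeR p under 0.05, both lower, against 2.56% of all genes (1.62% higher and 0.947% lower). Both comparisons use the same 3 sh-NT libraries, so their values are given side by side and are not independent.

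Over the 34 members, the median log2 fold change was -0.06 with sh-Gpc4 over sh-NT and 0.04 with sh-Gpc2 over sh-NT, against 0.02 and 0.00 over all genes tested. By sign alone, 14 members were higher and 20 lower with sh-Gpc4, and 22 higher and 12 lower with sh-Gpc2. The 3 sh-Gpc4 libraries all lay above the 3 sh-NT libraries for 1 member, Ankrd37, against 10.8% of all genes, and all below for 6 members, against 13.2% of all genes. Those 6 were Hk1, Slc2a1, Slc16a11, Pfkfb3, Epas1 and Ddit4. For sh-Gpc2 the groups did not overlap for 3 members, Ankrd37 above sh-NT (3.59% of all genes) and Eno2 and Slc16a11 below it (4.11% of all genes). A member count of 7 of 34 without overlap in sh-Gpc4 stands beside 24% of all genes, and 3 of 34 in sh-Gpc2 beside 7.7%.

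**Figure D2:**
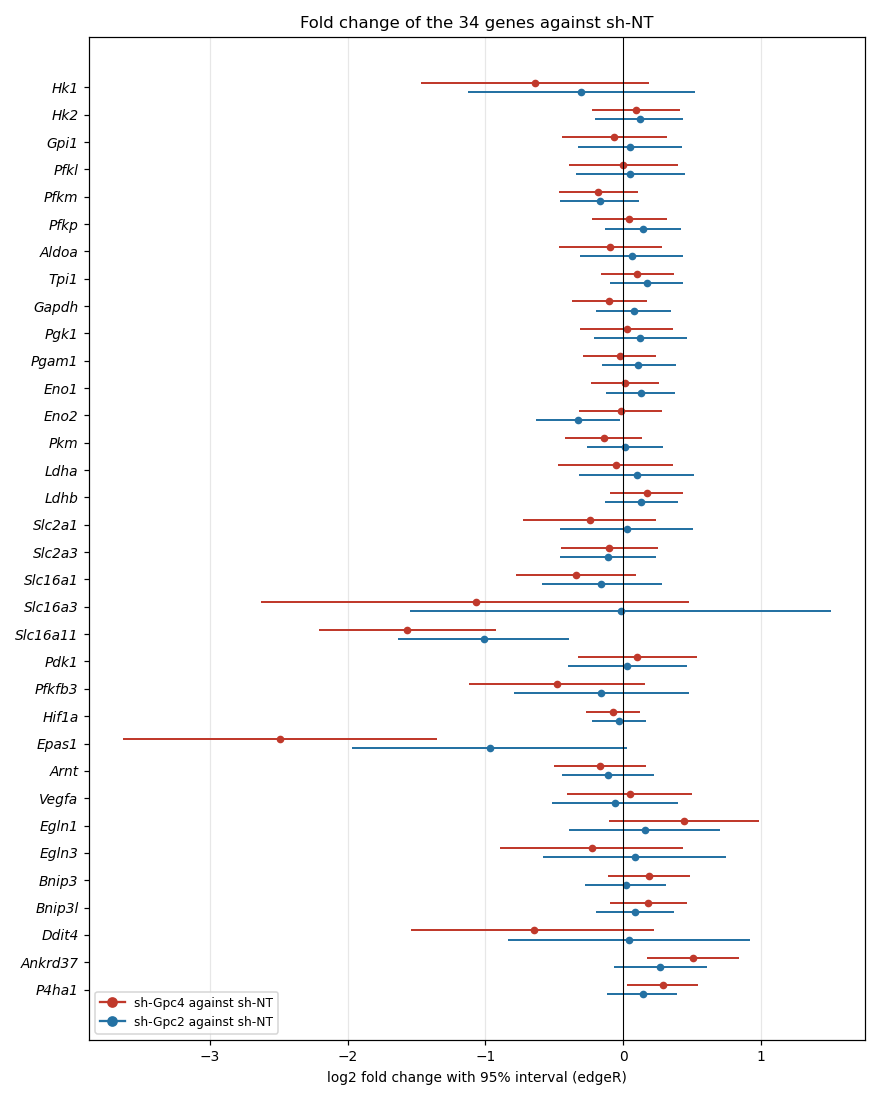
Log2 fold change of each member in sh-Gpc4 (red, upper) and sh-Gpc2 (blue, lower) against the same sh-NT libraries, with the 95% interval of edgeR's quasi-likelihood test. The red intervals of Slc16a11 (-2.20 to -0.93) and Epas1 (-3.62 to -1.36) lie below 0 and those of Ankrd37 (0.178 to 0.836) and P4ha1 (0.0374 to 0.536) above it; none of these passed after adjustment.

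None of the 16 glycolytic enzymes passed the threshold. Their log2 fold changes ran from -0.64 to 0.17 with sh-Gpc4 (7 higher, 9 lower, median -0.02) and from -0.33 to 0.17 with sh-Gpc2 (13 higher, 3 lower, median 0.09), with a median SE of 0.13 in each. The adjusted p was at least 0.489 for every enzyme with sh-Gpc4 and 0.968 with sh-Gpc2. The direction of these counts changed with the libraries and the tool used. Without sh-Gpc4 library 3 it was 11 higher and 5 lower with sh-Gpc4 (median 0.06), and without sh-Gpc2 library 2 it was 5 higher and 11 lower with sh-Gpc2 (median -0.08). With each library's GC trend removed, 15 were higher and 1 lower with sh-Gpc4 (median 0.14), and limma voom gave 10 higher and 6 lower (median 0.05). For the most abundant enzymes the intervals were narrow. Pkm had 1530, 1230 and 1330 CPM in sh-Gpc4, 1430, 1770 and 1360 CPM in sh-Gpc2, and 1420, 1510 and 1590 CPM in sh-NT. Eno1 had 935, 844 and 882 CPM in sh-Gpc4, 859, 1110 and 909 CPM in sh-Gpc2, and 825, 867 and 943 CPM in sh-NT. The groups overlapped for both. The 95% interval of the log2 fold change with sh-Gpc4 was -0.413 to 0.130 for Pkm and -0.228 to 0.255 for Eno1, and with sh-Gpc2 it was -0.259 to 0.284 for Pkm and -0.116 to 0.367 for Eno1.

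Hk1, the hexokinase that binds to mitochondria and traps glucose in the cell as its phosphate, had the most negative value among the enzymes with sh-Gpc4. It had 82.0, 31.6 and 55.5 CPM in sh-Gpc4 libraries 1, 3 and 4, 88.7, 87.3 and 37.4 CPM in sh-Gpc2 libraries 1, 2 and 4, and 86.1, 91.9 and 85.9 CPM in sh-NT. The sh-NT libraries lay within a narrow band, and the low values were in sh-Gpc4 libraries 3 and 4 and sh-Gpc2 library 4, the libraries that stood apart on the first component. This gave a log2 fold change of -0.64 with sh-Gpc4 (SE 0.366, 95% interval -1.46 to 0.178, edgeR adjusted p = 0.489) and -0.31 with sh-Gpc2 (SE 0.365, adjusted p = 0.968). Without sh-Gpc4 library 3 the sh-Gpc4 value was -0.35, and with the GC trend removed it was -0.42. Hk2, the hexokinase induced by HIF, did not share this pattern, with 28.2, 27.2 and 37.4 CPM in sh-Gpc4, 29.9, 35.3 and 29.4 CPM in sh-Gpc2 and 30.0, 28.5 and 28.7 CPM in sh-NT. The ratio of Hk1 to Hk2 per kb, whose absolute value depends on the exon lengths used, was 2.03, 0.812 and 1.04 in sh-Gpc4, 2.08, 1.73 and 0.891 in sh-Gpc2, and 2, 2.26 and 2.09 in sh-NT.

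Eno2 was the enzyme with the smallest p with sh-Gpc2. It had 5.53, 4.89 and 6.02 CPM in sh-Gpc4, 4.63, 4.28 and 4.37 CPM in sh-Gpc2, and 5.94, 5.28 and 5.43 CPM in sh-NT. All 3 sh-Gpc2 libraries lay below all others. With sh-Gpc2 the log2 fold change was -0.33 (SE 0.132, 95% interval -0.623 to -0.0305, edgeR adjusted p = 0.968) and with sh-Gpc4 -0.02 (SE 0.131, adjusted p = 0.955). Tpi1, triosephosphate isomerase, had log2 fold changes of 0.10 with sh-Gpc4 and 0.17 with sh-Gpc2, Pfkm -0.18 and -0.17, and Pfkp 0.045 and 0.14, all with intervals that include 0.

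A single library set the upper edge of most enzymes. In sh-Gpc2 library 2, 11 of the 16 enzymes (68.8%) had their highest value of the 9 libraries, against 14.7% of all genes tested. Pgk1, phosphoglycerate kinase, had 227 CPM there, against 141 and 173 CPM in the other sh-Gpc2 libraries, 162, 169 and 176 CPM in sh-Gpc4 and 165, 165 and 168 CPM in sh-NT. Ldha had 538 CPM there, against 360 and 349 CPM in the other sh-Gpc2 libraries, 402, 303 and 417 CPM in sh-Gpc4 and 405, 417 and 343 CPM in sh-NT. The same library had the highest sum of S and G2/M phase genes (4665 CPM, against 2897 to 3411 CPM in the other 8) and of radial glia markers (4215 CPM), and the lowest sum of microglia and macrophage markers (760 CPM). The part of these in the enzyme values was not tested. At the other edge, sh-Gpc4 library 3 was lowest for 8 of the 16 enzymes (50%), against 22.6% of all genes, and for 15 of the 34 members (44.1%).

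**Figure D3:**
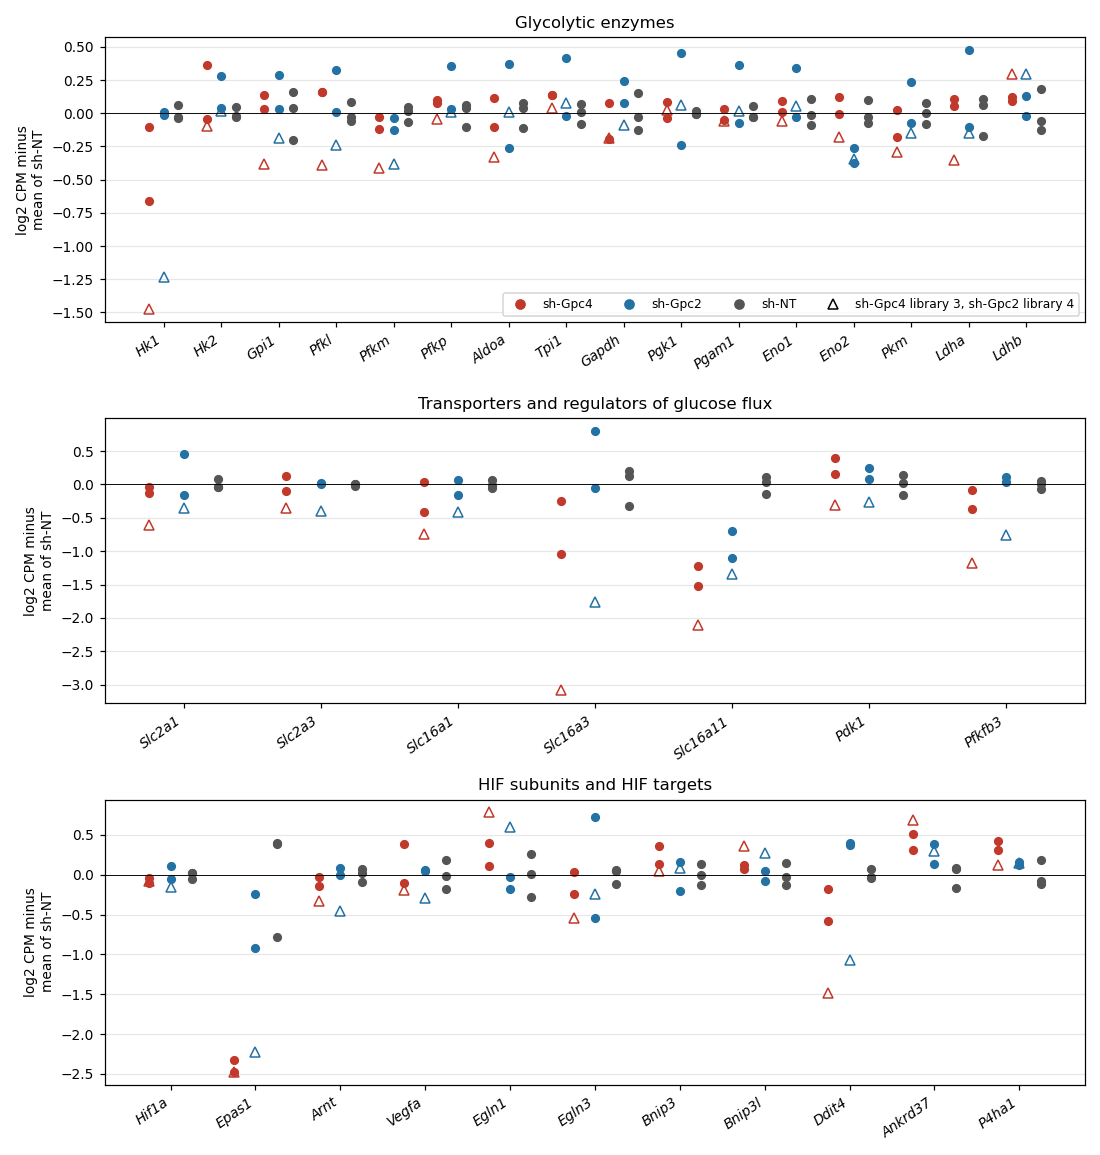
Each library's log2 CPM of each member minus the mean of the sh-NT libraries, for sh-Gpc4 (red), sh-Gpc2 (blue) and sh-NT (grey), with sh-Gpc4 library 3 and sh-Gpc2 library 4 drawn as open triangles. All enzymes but Hk1 lie within 0.5 of the line, the triangles are lowest for Hk1, Slc16a3, Pfkfb3 and Ddit4 and highest for Egln1, and Slc16a11 is below the line in all 6 knockdown libraries.

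Among the 5 transporters all values were negative with sh-Gpc4 (median log2 fold change -0.34), and 4 of 5 were with sh-Gpc2 (median -0.11), with 0 of 5 past the threshold in either. Without sh-Gpc4 library 3 the first count was 4 of 5 (median -0.16), and without sh-Gpc2 library 4 the second was 2 of 5 (median 0.01). Slc16a11, a proton-coupled transporter of pyruvate and other monocarboxylates (ENSMUSG00000040938, chromosome 11, 70212752 to 70216417, plus strand, GRCm38), had the smallest p of all members. It had 0.180, 0.120 and 0.221 CPM in sh-Gpc4, 0.318, 0.242 and 0.203 CPM in sh-Gpc2, and 0.467, 0.557 and 0.531 CPM in sh-NT. Behind these levels stood 9, 8 and 15 reads in sh-Gpc4, 18, 15 and 10 reads in sh-Gpc2, and 29, 33 and 30 reads in sh-NT. Every knockdown library lay below every sh-NT library. Its log2 fold change was -1.57 with sh-Gpc4 (SE 0.284, 95% interval -2.20 to -0.93, edgeR adjusted p = 0.488) and -1.01 with sh-Gpc2 (SE 0.273, 95% interval -1.63 to -0.401, edgeR adjusted p = 0.968). A two-sided exact permutation test over the libraries gave p = 0.1 for each, the smallest that 3 against 3 libraries allow. Its transcript has the highest GC content of the members, 62.3%, and with each library's GC trend removed the values were -1.16 and -0.85.

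Slc16a3 (MCT4), the lactate exporter typical of glycolytic cells, was the member with the widest spread. It had 18.5, 2.58 and 10.6 CPM in sh-Gpc4 libraries 1, 3 and 4, 21.2, 38.0 and 6.43 CPM in sh-Gpc2 libraries 1, 2 and 4, and 23.8, 25.2 and 17.5 CPM in sh-NT, a range of 14.7 times over the 9 libraries. The groups overlapped, and the lowest values were again in sh-Gpc4 library 3 and sh-Gpc2 library 4. Its log2 fold change was -1.07 with sh-Gpc4 (SE 0.689, adjusted p = 0.509 in edgeR) and -0.60 without sh-Gpc4 library 3. With sh-Gpc2 it was -0.02 (SE 0.678, 95% interval -1.54 to 1.5), and 0.42 without sh-Gpc2 library 4. Slc16a1 (MCT1), which moves lactate and ketone bodies in either direction, had 28.5, 22.7 and 38.9 CPM in sh-Gpc4, 34.1, 39.7 and 28.6 CPM in sh-Gpc2, and 36.5, 39.7 and 37.8 CPM in sh-NT. Its log2 fold changes were -0.34 (SE 0.191) and -0.16 (SE 0.191), with overlap in both comparisons. Slc2a1, named after its values were seen, had 66.0, 47.4 and 70.3 CPM in sh-Gpc4, against 76.4, 70.5 and 70.4 CPM in sh-NT, so its groups only just separated (edgeR adjusted p = 0.597). Slc2a3 ran from 15.5 to 22.2 CPM over all 9 libraries.

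Pfkfb3 makes fructose-2,6-bisphosphate, the activator of phosphofructokinase. It had 104, 48.8 and 86.0 CPM in sh-Gpc4, 114, 120 and 65.4 CPM in sh-Gpc2, and 115, 111 and 106 CPM in sh-NT. All sh-Gpc4 libraries lay below sh-NT, library 1 by a small margin, and sh-Gpc2 library 4 was the other low value. The log2 fold change was -0.48 with sh-Gpc4 (SE 0.280, adjusted p = 0.491 in edgeR), -0.21 without sh-Gpc4 library 3, and -0.16 with sh-Gpc2 (SE 0.280, adjusted p = 0.968). Pdk1 is the kinase that restrains the oxidation of pyruvate in mitochondria by inactivating pyruvate dehydrogenase. It had 68.6, 49.3 and 80.2 CPM in sh-Gpc4, 64.6, 73.0 and 50.8 CPM in sh-Gpc2, and 67.7, 61.9 and 54.8 CPM in sh-NT. Its groups overlapped in both comparisons.

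Of the HIF subunits, Hif1a was the steadiest member and Epas1 one of the most variable. Hif1a, described beyond the rule after its values were seen, had 301, 292 and 288 CPM in sh-Gpc4, 298, 333 and 278 CPM in sh-Gpc2, and 315, 315 and 297 CPM in sh-NT. Its highest library was 1.20 times its lowest, the smallest such range of the 34. The 95% interval of its log2 fold change was -0.266 to 0.115 with sh-Gpc4 and -0.220 to 0.160 with sh-Gpc2. Arnt, the common partner, had log2 fold changes of -0.17 (SE 0.145) and -0.11 (SE 0.145), with overlapping groups. Reads of Hif1a and of the antisense gene Gm15283 that overlaps it cannot be told apart if strand was not used in counting.

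Epas1 (ENSMUSG00000024140, chromosome 17, 86753700 to 86833410, plus strand, GRCm38) had 0.120, 0.120 and 0.133 CPM in sh-Gpc4, 0.353, 0.565 and 0.142 CPM in sh-Gpc2, and 0.386, 0.878 and 0.867 CPM in sh-NT. These stood on 6, 8 and 9 reads in sh-Gpc4, 20, 35 and 7 reads in sh-Gpc2, and 24, 52 and 49 reads in sh-NT. All sh-Gpc4 libraries lay below all others, sh-Gpc2 library 4 was close to them, and sh-NT library 1 was well below the other sh-NT libraries. With sh-Gpc4 the log2 fold change was -2.49 (SE 0.505, 95% interval -3.62 to -1.36, edgeR adjusted p = 0.488, lower in 3 of 3 libraries). DESeq2 gave -2.51 with an adjusted p of 0.0307 and limma voom -2.13 with 0.0531. Over 17 alternative settings it lay between -2.79 and -2.13, with an adjusted p of 0.0307 to 0.963. With sh-Gpc2 it was -0.97 (SE 0.442, 95% interval -1.96 to 0.0223, edgeR adjusted p = 0.968). None of the sh-Gpc4 libraries reached the CPM that the low-count filter asks for (0.168), against 2 sh-Gpc2 and 3 sh-NT libraries, so Epas1 was tested through the groups where it was higher. Slc16a11 reached it in 8 libraries and the other 32 members in all 9.

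Epas1 is known mainly from endothelial and perivascular cells, and most of their markers were lower in the knockdown groups too. Of the 9 endothelial markers tested (of 14 listed), 8 were lower with sh-Gpc4 (median log2 fold change -0.78) and 7 with sh-Gpc2 (median -0.84), and of the 11 mural markers 10 were lower with sh-Gpc4 (median -0.27) and 9 with sh-Gpc2 (median -0.57), with none past the threshold in edgeR, DESeq2 or limma voom. Cdh5, the endothelial cadherin, named as a defining marker after its values were seen, had 0.180, 0.210 and 0.236 CPM in sh-Gpc4, 0.300, 0.145 and 0.448 CPM in sh-Gpc2, and 0.241, 0.658 and 0.761 CPM in sh-NT. Cldn5, the endothelial claudin, had 0.0799, 0.195 and 0.236 CPM in sh-Gpc4, 0.106, 0.0807 and 0.142 CPM in sh-Gpc2, and 0, 0.793 and 1.13 CPM in sh-NT. Pecam1, also an endothelial gene and more abundant, went the other way. It had 3.66, 4.21 and 5.91 CPM in sh-Gpc4 and 5.58, 4.57 and 4.96 CPM in sh-Gpc2. In sh-NT it had 2.7, 3.71 and 4.78 CPM. Its log2 fold change was 0.30 with sh-Gpc4 (SE 0.24) and 0.43 with sh-Gpc2 (SE 0.24). The lowest sh-NT library for Epas1, library 1, was also the lowest of its group for Cdh5 and held 0 reads of Cldn5. Its endothelial list sum was not the lowest of the group, with 82.9 CPM against 87.0 CPM in library 2 and 77.9 CPM in library 4. The endothelial list summed to 68.4 to 83.0 CPM in sh-Gpc4, 77.0 to 97.4 CPM in sh-Gpc2 and 77.9 to 87.0 CPM in sh-NT, and the mural list to 16.0 to 21.9 CPM in sh-Gpc4, 14.53 to 31.4 CPM in sh-Gpc2 and 27.4 to 36.4 CPM in sh-NT. The part of these cells in the Epas1 values was not tested, and in bulk RNA fewer cells of a type and less RNA per cell cannot be told apart.

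Of the 8 members grouped as HIF targets, 6 were higher and 2 lower with sh-Gpc4 (median log2 fold change 0.19). With sh-Gpc2, 7 were higher and 1 lower (median 0.08), and 0 of 8 passed the threshold in either. Without sh-Gpc2 library 2 the sh-Gpc2 count was 4 higher and 4 lower (median 0.02). The sh-Gpc4 count was 5 or 6 higher whichever library was left out, with a median of 0.09 when the GC trend was removed. Of all 27773 genes tested, 14668 were higher with sh-Gpc4 and 14074 with sh-Gpc2. Of 44 further HIF targets tested, 22 were higher and 22 lower with sh-Gpc4, and 26 higher and 18 lower with sh-Gpc2. Ankrd37, an ankyrin repeat protein known as a direct HIF target (ENSMUSG00000050914, chromosome 8, 45996902 to 46005707, minus strand, GRCm38), was the target whose groups separated in both comparisons. It had 6.69, 8.67 and 7.70 CPM in sh-Gpc4, 5.93, 7.04 and 6.63 CPM in sh-Gpc2, and 5.73, 4.81 and 5.70 CPM in sh-NT. All 6 knockdown libraries exceeded all 3 sh-NT libraries, sh-Gpc2 library 1 by a small margin. Its log2 fold change was 0.51 with sh-Gpc4 (SE 0.147, 95% interval 0.178 to 0.836, edgeR adjusted p = 0.488) and 0.27 with sh-Gpc2 (SE 0.147, 95% interval -0.0579 to 0.602, edgeR adjusted p = 0.968). The genes Ufsp2 and Lrp2bp overlap Ankrd37, Ufsp2 on the opposite strand. Ufsp2, which encodes a protease of the ubiquitin-like protein UFM1, had 42.6, 51.7 and 50.1 CPM in sh-Gpc4, 38.1, 44.2 and 50.5 CPM in sh-Gpc2, and 38.9, 38.1 and 42.7 CPM in sh-NT, a log2 fold change of 0.27 with sh-Gpc4 (SE 0.13, adjusted p = 0.488). The sources used here do not say whether counting used strand, and without it reads of Ufsp2 and Ankrd37 in their overlap cannot be told apart.

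P4ha1, a subunit of the prolyl hydroxylase of collagen, had 89.7, 78.3 and 96.9 CPM in sh-Gpc4, 80.4, 78.7 and 79.6 CPM in sh-Gpc2, and 82.1, 68.2 and 66.8 CPM in sh-NT. The groups overlapped through sh-NT library 1. The log2 fold change was 0.29 with sh-Gpc4 (SE 0.111, 95% interval 0.0374 to 0.536, edgeR adjusted p = 0.488) and 0.14 with sh-Gpc2 (SE 0.111, adjusted p = 0.968). Egln1 (PHD2), the main oxygen sensor of the HIF system, had 26.4, 42.0 and 32.1 CPM in sh-Gpc4, 21.6, 24.0 and 36.9 CPM in sh-Gpc2, and 24.6, 20.2 and 29.3 CPM in sh-NT. Here the order was the reverse of that of Hk1, with the highest values in sh-Gpc4 library 3, sh-Gpc2 library 4 and sh-Gpc4 library 4. Its log2 fold change with sh-Gpc4 was 0.44 (SE 0.240, adjusted p = 0.488 in edgeR), 0.26 without sh-Gpc4 library 3 and 0.75 with the GC trend removed, and with sh-Gpc2 it was 0.16 (SE 0.240, adjusted p = 0.968).

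Ddit4 (REDD1), an inhibitor of mTORC1 that is induced by hypoxia and by other stresses, had a negative value with sh-Gpc4. Described beyond the rule after its values were seen, it had 105, 42.4 and 79.1 CPM in sh-Gpc4, 157, 154 and 56.7 CPM in sh-Gpc2, and 116, 125 and 115 CPM in sh-NT. The sh-Gpc4 libraries all lay below sh-NT, and the sh-Gpc2 libraries lay on both sides of it. The log2 fold change was -0.65 with sh-Gpc4 (SE 0.389, adjusted p = 0.493 in edgeR), -0.36 without sh-Gpc4 library 3, -0.38 with the GC trend removed, and 0.04 with sh-Gpc2 (SE 0.387, adjusted p = 0.996). Of 19 genes known to respond to tissue dissociation, 15 were higher with sh-Gpc4 (median 0.15) and 17 with sh-Gpc2 (median 0.32), with none past the threshold, and they summed to 3967 to 5555 CPM in sh-Gpc4, 5043 to 5331 CPM in sh-Gpc2 and 4385 to 4533 CPM in sh-NT. Their part in the Ddit4 values was not tested. Vegfa ran from 2.10 to 3.36 CPM over the 9 libraries and Egln3 from 10.1 to 24.2 CPM, both with overlapping groups. The mitophagy receptors Bnip3 (70.9 to 105 CPM) and Bnip3l (175 to 244 CPM) also overlapped between groups. Bnip3 is uncertain, because genes with near-identical sequence, chiefly Gm45507, hold reads equal to 50.4% of its own.

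**Figure D4:**
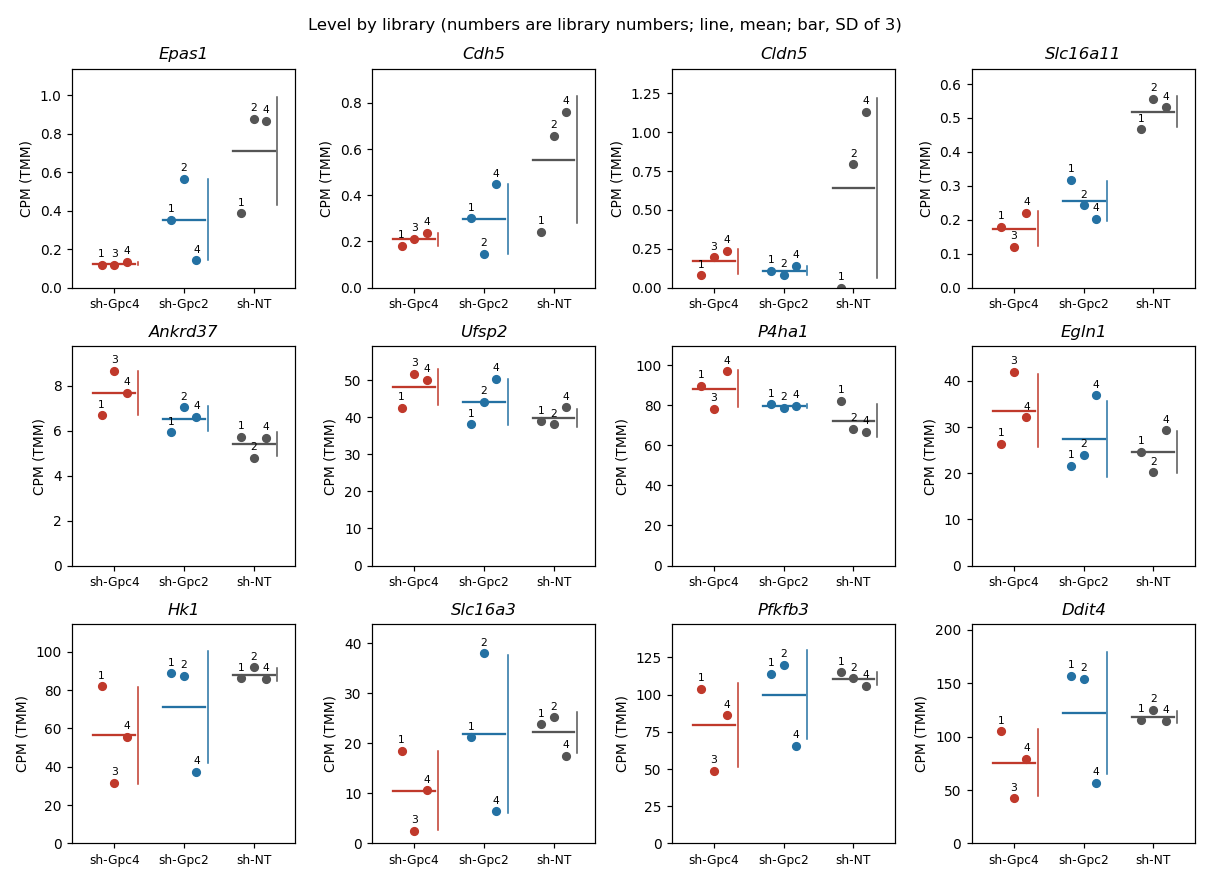
TMM-scaled CPM by library for 9 members and for Cdh5, Cldn5 and Ufsp2, with sh-Gpc4 left, sh-Gpc2 in the middle and sh-NT right; numbers are library numbers, horizontal lines group means and vertical bars the SD of 3 libraries. Ankrd37 and Slc16a11 separate all knockdown libraries from sh-NT, Epas1, Cdh5 and Cldn5 are highest in sh-NT libraries 2 and 4, and Hk1, Slc16a3, Pfkfb3 and Ddit4 are lowest in sh-Gpc4 library 3 and sh-Gpc2 library 4.

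Directly between the knockdowns, with sh-Gpc4 over sh-Gpc2, 0 of 34 members and 0% of genes passed in edgeR, DESeq2 or limma voom. Unadjusted p was under 0.05 for 2 members, against 2.89% of all genes. These were Eno2, higher (1.09% of all genes), and Epas1, lower (1.8% of all genes). The same 2 members were the ones whose libraries did not overlap, Eno2 above (3.5% of all genes) and Epas1 below (2% of all genes), against 5.5% of all genes in either direction. The log2 fold change of Eno2 was 0.31 (SE 0.132, 95% interval 0.0125 to 0.605, adjusted p = 0.966), and that of Epas1 -1.52 (SE 0.536, 95% interval -2.72 to -0.318, adjusted p = 0.966). Enzymes were lower in sh-Gpc4 than in sh-Gpc2 for 14 of 16 (median log2 fold change -0.10), while 6 of 8 HIF targets were higher (median 0.13), against a median of 0.00 over all genes. Without sh-Gpc2 library 2 the enzyme count was 13 higher and 3 lower (median 0.03), with the GC trend removed it was 8 and 8, and with limma voom it was 5 higher and 11 lower. In the same comparison 16 of 16 radial glia markers (median -0.13) and 17 of 17 genes of the S and G2/M phases (median -0.20) were lower, with none past the threshold, and their part in the enzyme values was not tested. For Slc16a11 the difference was -0.55 (SE 0.307, 95% interval -1.24 to 0.135) and for Ankrd37 0.24 (SE 0.146, 95% interval -0.0929 to 0.563), so a difference of this size in either gene could not be told from none. Ddit4 differed by -0.70 (SE 0.389), Slc16a3 by -1.05 (SE 0.689), Hk1 by -0.34 (SE 0.365), Pfkfb3 by -0.32 (SE 0.280) and Egln1 by 0.29 (SE 0.239), all with adjusted p = 0.966 in edgeR.

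The same pathways were followed beyond the members in 3 further lists. Of 38 tested genes of glycolysis and pyruvate metabolism beyond the members, 0 passed in any of the 3 tools, with 20 higher and 18 lower with sh-Gpc4 and 22 higher and 16 lower with sh-Gpc2 (median log2 fold change 0.02 in each), and unadjusted p was under 0.05 for 2 and 0 of them (9.57% and 2.56% of all genes). Slc2a4, the insulin-regulated glucose transporter, had 7.37, 4.41 and 5.66 CPM in sh-Gpc4, 8.70, 10.7 and 5.94 CPM in sh-Gpc2, and 10.4, 10.1 and 8.86 CPM in sh-NT, a log2 fold change of -0.75 with sh-Gpc4 (SE 0.24, edgeR adjusted p = 0.488). All 3 sh-Gpc4 libraries lay below sh-NT. The muscle phosphoglycerate mutase Pgam2 had a log2 fold change of -0.94 there (SE 0.36, adjusted p = 0.488) at levels of 0.686 ± 0.203 CPM in sh-Gpc4 and 1.3 ± 0.211 CPM in sh-NT (SD, n = 3 each).

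Of 17 further genes of HIF control, 10 were higher and 7 lower with sh-Gpc4 (median log2 fold change 0.01). With sh-Gpc2, 8 were higher and 9 lower (median -0.05). In edgeR and limma voom 0 passed the threshold. DESeq2 called 1, Siah2, with sh-Gpc4 (adjusted p = 0.0371), where it called 0.162% of all genes. Unadjusted edgeR p was under 0.05 for 3 of the 17 with sh-Gpc4 and 1 with sh-Gpc2, where 9.57% and 2.56% of all genes had one. Siah2 is a ubiquitin ligase that targets HIF prolyl hydroxylases. It had 3.62, 3.49 and 3.08 CPM in sh-Gpc4, 2.81, 2.78 and 3.76 CPM in sh-Gpc2, and 1.98, 1.79 and 2.05 CPM in sh-NT, without overlap between knockdown and control. Its log2 fold change was 0.81 with sh-Gpc4 (SE 0.17, edgeR adjusted p = 0.488) and 0.68 with sh-Gpc2 (SE 0.17, edgeR adjusted p = 0.968). Ubqln1, a ubiquilin, was at 90.4 ± 22.2 CPM in sh-Gpc4 and 178 ± 29.1 CPM in sh-NT (SD, n = 3 each), a log2 fold change of -0.98 (SE 0.27, edgeR adjusted p = 0.488).

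Of 44 further HIF targets tested, 0 passed in any of the 3 tools. With sh-Gpc4, 22 were higher and 22 lower (median log2 fold change 0.02) and 7 had an unadjusted p under 0.05, where 9.57% of all genes did. With sh-Gpc2, 26 were higher and 18 lower (median 0.06) and 5 had one, where 2.56% of all genes did. Hilpda, a lipid droplet protein induced by hypoxia, had 24.0, 27.7 and 26.5 CPM in sh-Gpc4, 24.0, 27.6 and 26.4 CPM in sh-Gpc2, and 21.2, 20.1 and 20.8 CPM in sh-NT. Its 6 knockdown libraries lay above its 3 sh-NT libraries, as for Ankrd37, with a log2 fold change of 0.33 with sh-Gpc4 (SE 0.10, edgeR adjusted p = 0.488) and 0.33 with sh-Gpc2 (SE 0.10, edgeR adjusted p = 0.968). Edn1, which encodes the vasoconstrictor endothelin-1, was scarce, at 0.403 ± 0.127 CPM in sh-Gpc4 and 0.130 ± 0.0562 CPM in sh-NT (SD, n = 3 each), with a log2 fold change of 1.64 (SE 0.41, edgeR adjusted p = 0.488).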

How the data were processed

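RNA was measured in 9 libraries of mCherry-positive cells, 3 per group. The PicoPure kit was used for RNA and the NEBNext Single Cell/Low Input kit for libraries, per the labels' protocols. The deposited values are whole-number read counts per Ensembl gene ID, and the submitters' processing notes name GRCm38, mm10, Subread and featureCounts. The sources used here name neither the annotation release nor the strand setting. Total counts were 48045603 to 66538437 per library. Of the 78275 IDs, 65.8% had a symbol in GENCODE M21 and held 96.8% to 97% of the reads. The columns carry group names and numbers other than those of the titles, and a column was assigned to a group and not to one sample. Libraries of a group differed by more than counting noise (chi-square 8.35 to 88.3 per degree of freedom), so no pair was the same sequenced library; whether libraries shared starting material was not tested.

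Counts of all 9 libraries were fitted together with edgeR 4.0.16 in R 4.3.3 (TMM scaling, filterByExpr, quasi-likelihood test, Benjamini-Hochberg adjustment over 27773 genes, threshold 0.05, median 9.5 degrees of freedom). Levels are TMM-scaled CPM, given per kb of union exon length where genes are compared. Alternatives were DESeq2 1.42.0 size factors and Wald test (545 genes without an adjusted p with sh-Gpc4 over sh-NT), limma 3.58.1 voom with sample weights, no filter, more than 5 CPM in at least 3 libraries, only the 2 groups compared, a replicate block, removal of a spline trend (6 df) on transcript GC over the 22126 genes with a GC value, and each library left out in turn. Leaving out sh-Gpc4 library 3 and sh-Gpc2 library 4 together was added after seeing the data. Near-identical gene copies were searched with BLAST 2.17.0 (at least 95% identity over at least 300 bases), and 11 members had a copy. IDs with the member's own symbol, as for Aldoa, were not counted as copies.

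The members and all gene lists were chosen with earlier results of these data known. Fold changes are given for 14 members by a rule, the smallest p in each comparison with sh-NT (5 enzymes, transporters or flux regulators and 4 HIF subunits or targets), and Hif1a, Ddit4 and Slc2a1 were added after their values were seen. Intervals for Pkm and Eno1 were given as the most abundant enzymes by CPM. For each further list, the 2 genes with the smallest p were eligible to be named. Cdh5 and Pecam1 (endothelial) and Ufsp2 (overlapping Ankrd37) were added after their values were seen.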

Additional observations from a re-analysis of the deposited data

How the results depend on the processing

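No gene passed the threshold in edgeR or limma voom under any alternative run in any of the 3 comparisons. With sh-Gpc4 over sh-NT the smallest adjusted p of limma voom was 0.0531. DESeq2 called 45 genes in that comparison, 1 of them a member (Epas1, log2 fold change -2.51), and 0 in the others. Sign changes were counted only for the 14 members named by the rule and for Hif1a and Ddit4. Among the alternatives other than leaving out 1 library, 24 of their log2 fold changes changed sign, all of them uncalled. With sh-Gpc4 over sh-NT, Eno2 was 0.047 with limma voom, 0.031 with the replicate block, 0.19 with the GC trend removed and 0.051 without sh-Gpc4 library 3 and sh-Gpc2 library 4, and Pfkm was 0.018 with the GC trend removed. With sh-Gpc2 over sh-NT, Ddit4 was -0.074 with the block and Slc16a3 0.052 with the GC trend removed, and without the 2 libraries Pfkfb3 was 0.058, Slc16a3 0.40, Egln1 -0.13, Arnt 0.024 and Hif1a 0.014. With sh-Gpc4 over sh-Gpc2, Pfkm was 0.014 with limma voom and 0.013 without the 2 libraries, Tpi1 was 0.0077 and Pfkm 0.092 with the GC trend removed, and the block gave Slc16a1 0.055, Hk1 0.10, Pfkfb3 0.044, Tpi1 0.059, Pfkm 0.15, Pfkp 0.020, Arnt 0.092 and Hif1a 0.0037. Signs of the remaining members changed too. Over all 34 members, removal of the GC trend gave 22 higher and 12 lower with sh-Gpc4 over sh-NT (14 and 20 in the main fit). The replicate block gave 24 higher and 10 lower with sh-Gpc4 over sh-Gpc2 (10 and 24 in the main fit). The causes were not tested.

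For the 14 members named by the rule and for Hif1a and Ddit4, leaving out 1 library at a time turned 22 signs and left 410 values on their side. With sh-Gpc4 over sh-NT the values then ran from -0.092 to 0.069 for Eno2 and -0.0098 to 0.098 for Pfkp. With sh-Gpc2 over sh-NT they ran from -0.68 to 0.42 for Slc16a3, -0.18 to 0.39 for Ddit4, -0.49 to 0.0023 for Hk1, -0.31 to 0.074 for Pfkfb3, -0.11 to 0.30 for Egln1, -0.21 to 0.04 for Arnt and -0.10 to 0.03 for Hif1a. With sh-Gpc4 over sh-Gpc2 they ran from -0.10 to 0.10 for Pfkm, -0.21 to 0.049 for Arnt, -0.15 to 0.075 for Tpi1, -0.16 to 0.021 for Pfkp and -0.10 to 0.028 for Hif1a. Over all 34 members, leaving out sh-Gpc2 library 2 gave 9 higher and 25 lower with sh-Gpc2 over sh-NT (22 and 12 in the main fit). With sh-Gpc4 over sh-Gpc2 it gave 25 higher and 9 lower (10 and 24 in the main fit).

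Whether the column numbers pair the libraries could not be told. Deviations of same-numbered libraries correlated unevenly, at 0.00665 and 0.222 (sh-Gpc4 and sh-NT), -0.0828, 0.471 and 0.461 (sh-Gpc2 and sh-NT) and 0.682 and -0.101 (sh-Gpc4 and sh-Gpc2). Correlations between libraries of different number were not computed as a reference. With the replicate block 0 genes passed in each comparison, and unadjusted p was under 0.05 for 1005, 1448 and 444 genes, against 2657, 712 and 804 without it. The block turned the count of enzymes to 13 higher and 3 lower with sh-Gpc4 over sh-NT (7 and 9 without it) and to 11 higher and 5 lower with sh-Gpc4 over sh-Gpc2 (2 and 14 without it). Epas1 and Slc16a11 have no value under the filter of 5 CPM, and only 6 to 52 and 8 to 33 reads per library stood behind them.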
